A study of Mus musculus with 4 samples.

Results

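The genes read here belong to the response to heme, electrophiles and metals, and they were followed in 4 single-cell RNA libraries of the mouse. They are 10 of the 32285 genes that every library lists. The set is Hmox1, Nqo1, Gclm, Gclc, Srxn1, Txnrd1, Slc7a11, Prdx1, Mt1 and Mt2, and it was chosen on measured values, because earlier results of these libraries had shown several of them to differ between vehicle and 1NMPP1. Their ratios are therefore a description. The mice of all 4 libraries carry an altered receptor kinase of sensory neurons that the compound 1NMPP1 can inhibit, and in all of them the growth plate (GP) of the distal femur had been injured 7 days before the tissue was taken. The 1NMPP1 mice were injected intraperitoneally with 17 µg/g body weight from a 5 mM solution, 48 h and 2 h before surgery, with 40 µM of the compound in their drinking water afterwards, while controls received DMSO vehicle. One vehicle and one 1NMPP1 library came from the injured end of the femur with its surrounding tissue, and the other pair from dorsal root ganglia (DRG) at lumbar levels L1 to L5 of the operated side. The sources used here do not give the age or number of the animals in a library, and there is no group without injury or without the altered kinase.

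Most of these genes are known targets of Nrf2, a transcription factor (gene Nfe2l2) that Keap1 marks for degradation until oxidants or electrophiles modify Keap1; Nrf2 then binds antioxidant response elements together with small Maf proteins, while Bach1 occupies such elements until heme binds it. Hmox1 encodes heme oxygenase, which splits heme into biliverdin, iron and carbon monoxide and is typical of macrophages that take up red cells. Slc7a11 is the cystine importer, Gclc and Gclm are the catalytic and modifier subunits of glutamate-cysteine ligase, the first step of glutathione synthesis, Txnrd1, Srxn1 and Prdx1 belong to the thioredoxin and peroxiredoxin cycle, and Nqo1 reduces quinones. Mt1 and Mt2 are metallothioneins, small cysteine-rich proteins that bind zinc and copper and are switched on by the metal sensor Mtf1 and by glucocorticoids.

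The 250 bases before the transcription start are shown for 4 of the genes, because the metallothioneins did not go with the glutathione genes in DRG glia and Prdx1 followed neither in every class. The sequences are from RefSeq on GRCm38.p6, the build called mm10, written 5′ to 3′ on the gene's strand. Entries for 8 of the 10 genes were matched by symbol, all but Hmox1 and Gclc. Capitals mark the letters TGACNNNGC, the core of an antioxidant response element, and TGCACNC or TGCGCNC, the core of a metal response element, searched on both strands with overlaps allowed. Gclm lies at chr3:122245307-122245556, Prdx1 at chr4:116685349-116685598, Mt1 at chr8:94178839-94179088 and Mt2 at chr8:94172368-94172617, all on the plus strand.
Gclm: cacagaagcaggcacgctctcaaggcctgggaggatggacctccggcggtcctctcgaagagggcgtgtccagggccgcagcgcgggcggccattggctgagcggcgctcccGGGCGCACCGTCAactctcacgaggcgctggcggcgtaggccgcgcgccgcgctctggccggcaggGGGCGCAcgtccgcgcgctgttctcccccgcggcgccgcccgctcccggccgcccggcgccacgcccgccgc
Prdx1: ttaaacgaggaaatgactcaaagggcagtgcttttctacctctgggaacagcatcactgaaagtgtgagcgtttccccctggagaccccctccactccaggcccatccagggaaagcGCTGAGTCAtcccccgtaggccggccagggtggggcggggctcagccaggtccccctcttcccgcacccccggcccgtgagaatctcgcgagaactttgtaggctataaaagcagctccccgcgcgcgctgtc
Mt1: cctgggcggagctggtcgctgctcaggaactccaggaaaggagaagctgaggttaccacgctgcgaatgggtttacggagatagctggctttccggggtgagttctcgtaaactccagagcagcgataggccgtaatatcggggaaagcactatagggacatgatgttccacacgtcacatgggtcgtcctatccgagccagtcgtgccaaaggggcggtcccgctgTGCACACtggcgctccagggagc
Mt2: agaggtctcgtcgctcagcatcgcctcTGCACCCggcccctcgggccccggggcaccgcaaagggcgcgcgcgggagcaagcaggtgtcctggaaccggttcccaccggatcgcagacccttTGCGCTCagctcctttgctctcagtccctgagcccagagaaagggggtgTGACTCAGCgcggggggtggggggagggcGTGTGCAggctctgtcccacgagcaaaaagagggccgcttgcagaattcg
The antioxidant core was found once each in Gclm (134 bases before the start), Prdx1 (133 bases) and Mt2 (79 bases), and before 1 of the 3 listed starts of Txnrd1 (92 bases). In Prdx1 it reads GCTGAGTCA, the reverse complement of the TGACTCAGC of Mt2. A metal response core was found 3 times in Mt2, 2 times in Gclm, where the farther one overlaps the antioxidant core, and once each in Mt1 and Srxn1. The Nqo1 and Slc7a11 windows hold neither. Of all 32851 windows of this length in the table, 10.2% hold the antioxidant core and 21.4% a metal response core, 5.17% at least 2 of them. A match is a description of the letters and not of a site in use. The counts hold for these windows only, since bases after the listed start were not searched. Starts also differ between sources: the Mt2 window ends at 94172617, before the GENCODE start at 94172664. A window without a core, such as that of Mt1 for the antioxidant core, therefore does not mean that the gene lacks one.

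In GENCODE M21, the genes lie on chromosomes 8 (Hmox1, 75093621 to 75100589, plus strand, and Nqo1, 107388225 to 107403206, minus strand), 3 (Gclm and Slc7a11), 9 (Gclc), 2 (Srxn1), 10 (Txnrd1) and 4 (Prdx1). Mt2 (94172664 to 94173568) and Mt1 (94179082 to 94180327) are neighbours on the plus strand of chromosome 8, 5513 bases apart. Within the last 500 bases of their transcripts, 12.6% of the 60-base words of Prdx1 and 8.31% of those of Gclm occur in other genes, which for Prdx1 are copies such as Gm21399, so their counts are less certain than those of Hmox1, Nqo1, Gclc, Srxn1, Txnrd1, Mt1 and Mt2, where none occur.

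The libraries held 102693014 (GP vehicle), 139703885 (GP 1NMPP1), 57303894 (DRG vehicle) and 32791945 (DRG 1NMPP1) unique molecular identifier counts (UMIs), and 8649, 10519, 2830 and 2146 cells were kept, with medians of 6501, 7046, 10411 and 6958 UMIs. Levels are in CPM, the share of a gene's UMIs among all UMIs of a class in a library on the usual CPM scale, with exact Poisson intervals; ratios are log2 of 1NMPP1 over vehicle with exact conditional intervals, and shares of cells have exact Clopper-Pearson intervals. All intervals are at 95% and cover counting error only. Each group has 1 library, so no difference has a replicate check and no p-value is given. A gene is counted past the fold where its ratio is at least 1.5-fold with at least 20 UMIs over both libraries of the class. The DRG vehicle library stands apart from the other 3 in that 9.36% of its barcodes were over the mitochondrial limit, against 0.915% to 2.14%, and male-called cells (those with UMIs of Y-linked genes and none of Xist) were 49.6% and 45.7% of the vehicle libraries but 24.7% and 17.4% of the 1NMPP1 libraries. Pairs of libraries shared 4 to 29 barcodes. Cell classes were rebuilt from marker genes, with the 10 genes and 74 others of these pathways left out of the clustering. Their defining markers were present: in DRG satellite glia-like cells Fabp7 stood at 6280 and 6887 CPM (vehicle, then 1NMPP1), in endothelial-like cells Cldn5 at 1315 and 1476 CPM, in DRG macrophage-like cells C1qa at 2895 and 3401 CPM, and in GP neutrophil-like cells Retnlg at 12083 and 12891 CPM.

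Hmox1 was highest in macrophage-like cells of every library. In the DRG vehicle library it stood at 1146 CPM in macrophage-like cells (69 cells, 1064 to 1233), 547 CPM in endothelial-like cells (134 cells, 520 to 574) and 479 CPM in satellite glia-like cells (594 cells, 465 to 492), 3 classes whose intervals did not overlap. A second tier followed with fibroblast-like (67.4 CPM), myelinating Schwann-like (66.6 CPM), chondrocyte-like (59.98 CPM), non-myelinating Schwann-like (59.9 CPM), neutrophil-like (58.4 CPM) and monocyte-like cells (56.0 CPM), whose intervals all overlapped. Sensory neuron-like cells were at 17.4 CPM, pericyte or smooth muscle-like cells at 13.6 CPM, erythroid-like cells at 4.71 CPM and B cell-like cells at 3.85 CPM. In the DRG 1NMPP1 library the order began with macrophage-like (683 CPM, 598 to 776), endothelial-like (125 CPM, 107 to 145) and satellite glia-like cells (65.6 CPM, 55.9 to 76.5), and the last of these overlapped monocyte-like (57.8 CPM) and neutrophil-like cells (47.7 CPM). Myelinating Schwann-like (25.8 CPM), fibroblast-like (23.4 CPM), sensory neuron-like (11.3 CPM), NK cell-like (5.02 CPM), B cell-like (1.80 CPM) and erythroid-like cells (0.843 CPM) came after.

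In the growth plate, macrophage-like cells were at 355 CPM in the vehicle (38 cells, 302 to 414) and 757 CPM in the 1NMPP1 library (51 cells, 681 to 839). Monocyte-like cells stood at 38.1 and 39.1 CPM, neutrophil-like cells at 19.8 and 21.5 CPM and chondrocyte-like cells at 11.5 and 17.6 CPM. Lymphoid, erythroid-like and progenitor classes were at or under 6.81 CPM in both libraries, with T cell-like cells at 0 UMIs in both, which allows up to 5.50 and 4.08 CPM. Conventional dendritic cell-like cells were at 93.7 and 7.98 CPM, but 1 vehicle cell held 65 of the 74 UMIs. Neutrophil-like and monocyte-like cells, 4340 and 865 in the vehicle library, held 41.5% and 33.4% of all its Hmox1 UMIs, against 56.9% in satellite glia-like cells of the DRG vehicle library. In the DRG 1NMPP1 library no class held over 23.2%, the share of macrophage-like cells.

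**Figure D1:**
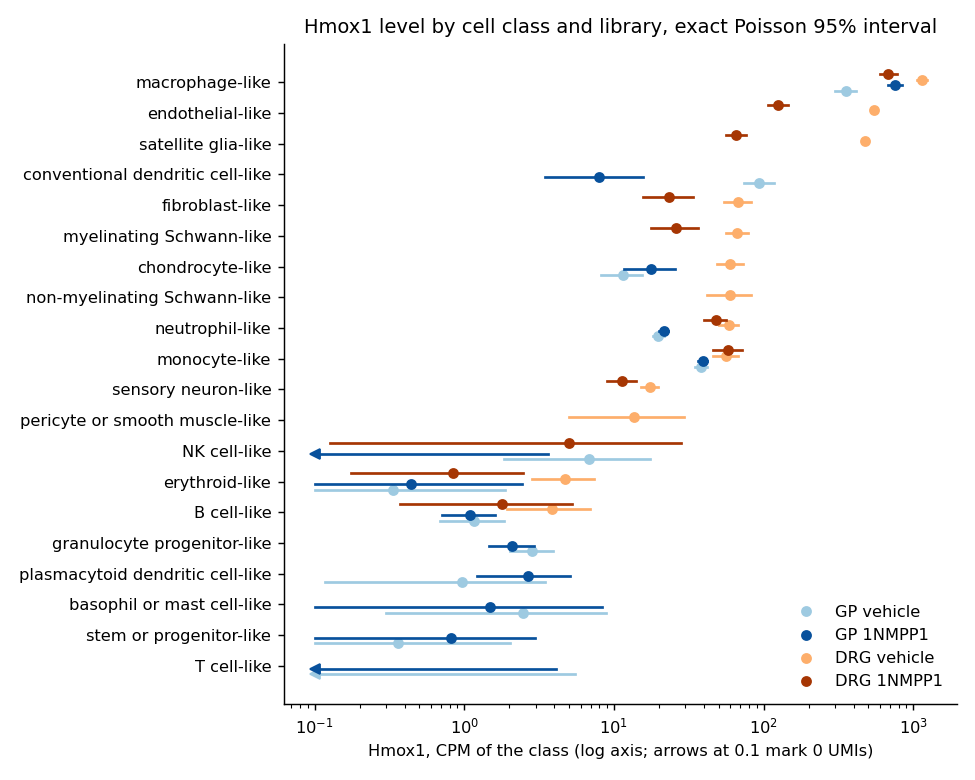
Hmox1 in CPM on a log axis for each cell class with at least 30 cells, coloured by library, with exact Poisson 95% intervals. Macrophage-like cells are highest in each library, and the satellite glia-like and endothelial-like cells of the DRG vehicle library (479 and 547 CPM) lie far to the right of their 1NMPP1 counterparts (65.6 and 125 CPM).

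Free RNA can give a cell UMIs it did not make, so the share of cells with an Hmox1 UMI was set beside that of B cell-like cells. Of DRG satellite glia-like cells, 64.8% had an Hmox1 UMI in the vehicle library (60.8% to 68.7%) and 38.3% in the 1NMPP1 library (31.3% to 45.7%), at medians of 15421 and 12683 UMIs per cell. B cell-like cells had 3.67% and 1.02% at medians of 6283 and 4414 UMIs. With every cell thinned to 1000 UMIs, which left 591 and 186 satellite glia-like cells, the shares were 25.4% (21.9% to 29.1%) and 1.61% (0.334% to 4.64%), and those of B cell-like cells 0.671% and 0%, the latter allowing up to 1.26%. After thinning, which left 3 Hmox1 UMIs, the share of 1NMPP1 satellite glia-like cells was not set apart from that of B cell-like cells. That of vehicle cells was. With all UMIs, Hmox1 in the 1NMPP1 library was at 65.6 CPM (55.9 to 76.5) in satellite glia-like and 1.80 CPM (0.371 to 5.26) in B cell-like cells. The unthinned shares of cells there, 38.3% (31.3% to 45.7%) and 1.02% (0.211% to 2.95%), did not overlap either, at unequal depth. Of endothelial-like cells 78.4% (70.4% to 85.0%) and 36.7% (28.1% to 46.0%) had one, and 24.8% and 7.69% after thinning. In macrophage-like cells the shares overlapped, 75.4% (63.5% to 84.9%) and 67.2% (53.7% to 79.0%).

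In DRG satellite glia-like cells, the cells that wrap sensory neuron bodies, 6 of the 10 genes were lower in the 1NMPP1 library past the fold and none was higher. Of all 12605 genes with at least 20 UMIs in this class, 10.4% were lower and 22.4% higher past the fold, with a median log2 ratio of 0.15, against a median of -1.17 over the 10 genes. Hmox1 had 4746 UMIs in vehicle and 163 in 1NMPP1 cells, which is 7.27-fold lower per UMI (log2 ratio -2.86, -3.10 to -2.64). The cystine importer Slc7a11 was at 165 and 25.4 CPM, a log2 ratio of -2.69 (-3.09 to -2.34). Both subunits of glutamate-cysteine ligase were lower, Gclm at 176 and 57.6 CPM (-1.61, -1.87 to -1.37) and Gclc at 95.9 and 39.9 CPM (-1.26, -1.58 to -0.97). Txnrd1, the thioredoxin reductase of the cytosol, was at 269 and 107 CPM (-1.32, -1.51 to -1.14), and Srxn1, which repairs over-oxidized peroxiredoxins, at 51.2 and 24.2 CPM (-1.07, -1.496 to -0.70). All 6 had intervals that stayed under -0.58, the log2 of 1.5-fold.

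The other 4 did not pass the fold in these cells. Prdx1, a peroxiredoxin that reduces hydrogen peroxide, was at 769 and 720 CPM (-0.10, -0.17 to -0.02). Nqo1 stood at 8.47 and 8.45 CPM from 84 and 21 UMIs (0.02, -0.77 to 0.70). The metallothioneins lay on the other side of 0, Mt1 at 3501 and 4511 CPM (0.37, 0.33 to 0.40) and Mt2 at 475 and 578 CPM (0.28, 0.20 to 0.37). Of the vehicle cells, 165 of 594 (27.8%) had over 500 CPM of Hmox1 of their own, against 3 of 188 (1.60%) 1NMPP1 cells. The median vehicle cell was at 132 CPM, and the 60 cells with the most Hmox1 UMIs held 51.7% of them.

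**Figure D2:**
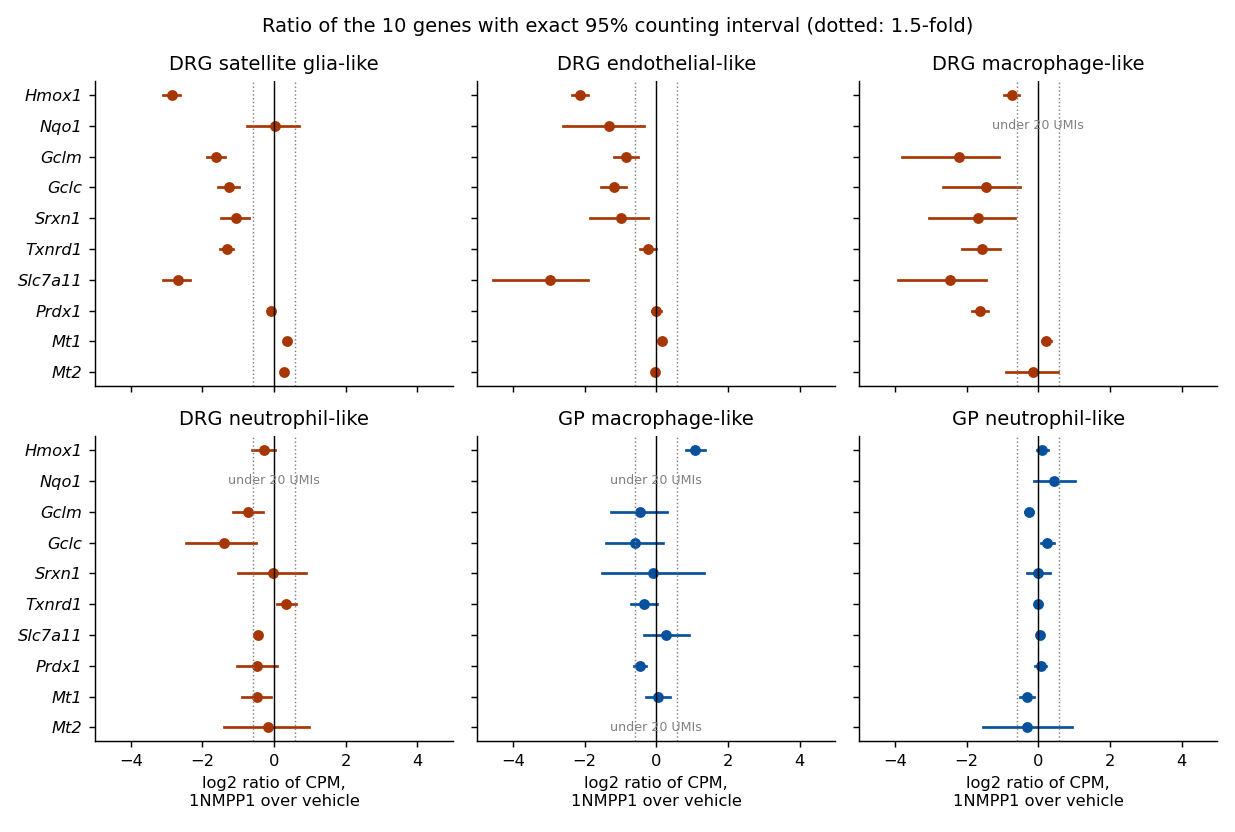
Log2 ratio of CPM, 1NMPP1 over vehicle, for the 10 genes in 6 classes, with exact conditional 95% intervals; dotted lines mark 1.5-fold, and genes under 20 UMIs are written as such. In DRG satellite glia-like and endothelial-like cells 6 points lie left of the dotted lines, as do 7 in DRG macrophage-like cells, while all 10 lie between the lines in GP neutrophil-like cells.

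The satellite glia-like cells of the 2 libraries fell largely into different clusters. Cluster 0.0, led by Mmd2 and Fabp7, held 142 of the 188 1NMPP1 cells (75.5%) and 83 of the 594 vehicle cells (14.0%). Cluster 0.1, led by Cdh19 and Sostdc1, held 171 vehicle and 4 1NMPP1 cells, and cluster 0.2, with Cxcl10 among its leading genes, 132 and 9. Cluster 7.0 held 113 and 12, cluster 0.3 held 53 and 7, cluster 0.4 held 39 and 2, and cluster 7.2 held 3 and 12; clusters 7.0 and 7.2 had none of the satellite glia markers among their 10 leading genes. Hmox1 in vehicle cells was at 969 CPM in cluster 0.1 and 517 CPM in cluster 0.2, at 140.5 to 199 CPM in clusters 0.3, 0.4 and 7.0, and at 81.4 CPM in cluster 0.0. Clusters 0.1 and 0.2 also held the highest Slc7a11 (252 and 276 CPM, against 2.91 CPM in cluster 0.0), Gclm (316 and 178 CPM, against 70.4) and Txnrd1 (417 and 284 CPM, against 111). Mt1 did not follow this order, with 3747 and 3631 CPM in clusters 0.1 and 0.2 and 3898 CPM in cluster 0.0.

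Within cluster 0.0 the libraries were closer. Hmox1 stood at 81.4 and 64.7 CPM (-0.33), and none of the 10 genes was lower past the fold. Slc7a11 was higher there in 1NMPP1 cells, from 5 and 62 UMIs (3.26), with 32 of the 1NMPP1 UMIs in 1 cell. Over clusters 0.0 and 7.0 together, the 2 with at least 10 cells in both libraries, Hmox1 was at -0.64, Gclm at -0.63, Gclc at -1.08, Txnrd1 at -0.52, Srxn1 at -0.28 and Slc7a11 at 1.21. The class-wide ratios thus include how many cells of each library lay in clusters 0.1 and 0.2; with 1 library a group, a difference between treatments and one between libraries cannot be told apart. The restriction to these 2 clusters was chosen after seeing the data. Within male-called cells alone Hmox1 was at -2.48 (342 and 49 cells).

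**Figure D3:**
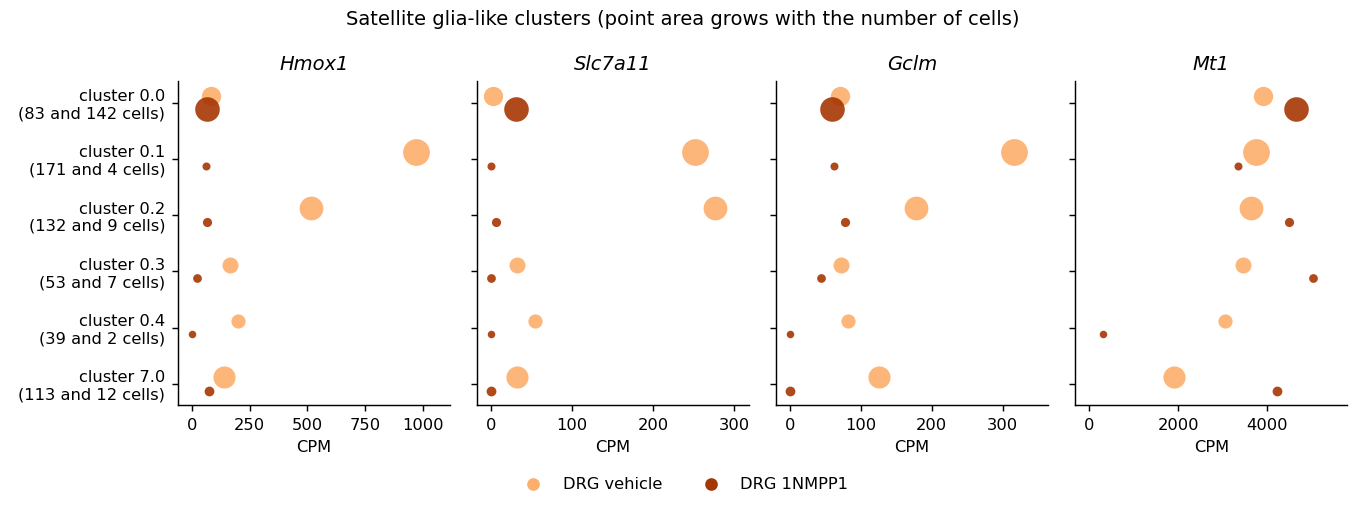
CPM of Hmox1, Slc7a11, Gclm and Mt1 in 6 satellite glia-like clusters of the DRG, with point area growing with the number of cells; cluster 7.2 (3 and 12 cells) is not drawn. In Hmox1, Slc7a11 and Gclm the vehicle points of clusters 0.1 and 0.2 lie to the right, while in cluster 0.0 the libraries lie close together except for Slc7a11 (2.91 and 30.4 CPM); Mt1 shows no such order.

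Several measures of cell state moved between the satellite glia-like cells of the 2 libraries beside these genes, and their part in the result was not tested. Immediate early genes were higher in the 1NMPP1 cells. Fos stood at 1385 CPM (vehicle) and 2331 CPM (1NMPP1), Jun at 1925 and 2322 CPM, Egr1 at 495 and 1244 CPM and Atf3 at 502 and 753 CPM. The heat shock genes Hspa1a (454 and 462 CPM) and Hspa1b (343 and 343 CPM) were close, and Dnajb1 was at 252 and 438 CPM. In cluster 0.1, with the highest Hmox1, Fos was at 594 CPM in vehicle cells, and in cluster 0.0 at 3778 CPM in vehicle and 2550 in 1NMPP1 cells. Hemoglobin genes summed to 1874 and 2702 CPM, and to 271 CPM in vehicle cells of cluster 0.1 against 245 CPM in those of cluster 0.0 and 18607 CPM in those of cluster 7.0. The median mitochondrial share was 5.35% and 4.38%. Of 15 macrophage markers 4 were at 0 in vehicle and 8 in 1NMPP1 cells, and the list summed to 84.3 and 105 CPM.

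In DRG endothelial-like cells, a single cluster, 6 of the 10 genes were lower past the fold and none higher, with 9.48% of 10290 genes lower and 25.4% higher, and their median log2 ratio was -0.90, against 0.22 for all genes. Hmox1 was at 547 CPM (134 vehicle cells) and 125 CPM (120 1NMPP1 cells), a log2 ratio of -2.12 (-2.36 to -1.90). Slc7a11 had 105 and 6 UMIs (-2.96, -4.55 to -1.90). Nqo1 was at 16.4 and 6.28 CPM (-1.32, -2.60 to -0.35), Gclc at 134 and 58.7 CPM (-1.19, -1.55 to -0.85), Srxn1 at 23.8 and 11.9 CPM (-0.97, -1.86 to -0.22) and Gclm at 125 and 69.8 CPM (-0.84, -1.17 to -0.52). Txnrd1 (198 and 170 CPM), Prdx1 (492 and 494 CPM), Mt1 (4427 and 4983 CPM) and Mt2 (1585 and 1555 CPM) did not pass the fold. Hmox1 was lower in male-called (-3.02, 86 and 29 cells) and in female-called cells (-1.79, 28 and 78 cells), while the count of 6 genes lower was 3 in female-called cells. The median depth was 18670 UMIs in vehicle and 8892 in 1NMPP1 cells, and the count of genes lower was 1 after thinning to 1000 UMIs, with Hmox1 still at -1.90. Hemoglobin genes summed to 288 and 4596 CPM and Hspa1a stood at 559 and 1051 CPM, both higher in the 1NMPP1 library.

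Myelinating Schwann-like cells, which insulate the axons, had 2 of 8 measured genes lower past the fold and none higher, where 7.78% of all genes were lower and 17.3% higher. Hmox1 was at 66.6 and 25.8 CPM over 291 and 256 cells (-1.35, -1.97 to -0.80), and Txnrd1 at 126 and 66.1 CPM (-0.92, -1.31 to -0.57). The metallothioneins were higher without passing the fold, Mt1 at 3837 and 5371 CPM (0.49, 0.44 to 0.53) and Mt2 at 498 and 741 CPM (0.57, 0.44 to 0.70). Gclm, Gclc, Srxn1 and Prdx1 lay between -0.40 and -0.02, and Nqo1 and Slc7a11 had under 20 UMIs. With cells thinned to 1000 UMIs the 251 and 240 cells left held 5 Hmox1 UMIs each (0.06), and with each cell weighing alike the log2 ratio was -0.76; the cause was not tested. Beside these genes, hemoglobin genes summed to 6816 and 2464 CPM, the 16 neutrophil markers to 641 CPM (1 at 0) and 328 CPM (2 at 0), Fos stood at 2401 and 3686 CPM and Egr1 at 358 and 991 CPM, and their part in the result was not tested.

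Fibroblast-like cells of the DRG had 5 of 10 genes lower past the fold and none higher, with 9.33% of all genes lower and 17.9% higher. Hmox1 was at 67.4 and 23.4 CPM (-1.51, -2.18 to -0.91) and Slc7a11 at 53.6 and 9.69 CPM (-2.42, -3.48 to -1.58). Nqo1 (-1.21), Txnrd1 (-0.83) and Gclc (-0.74) were the others, whereas Mt1 (-0.06) and Mt2 (0.04) were near 0. Hemoglobin genes summed to 325 and 3851 CPM in the fibroblast-like cells, the 13 erythroid markers to 336 CPM (3 at 0) and 3871 CPM (2 at 0), and the 16 neutrophil markers to 324 CPM (1 at 0) and 190 CPM (4 at 0). Their part in the result was not tested. After thinning to 1000 UMIs none of the genes was counted as lower, but genes under the UMI minimum could not be counted. Hmox1 was then in 7.48% of 107 vehicle and 0.893% of 112 1NMPP1 cells, and Slc7a11 in 3.74% and 0.893%. Over 9 alternatives Hmox1 (-2.73 to -0.99) and Slc7a11 (-5.41 to -1.89) stayed lower past the fold. Nqo1 (-3.90 to 0.42), Txnrd1 (-1.12 to -0.21) and Gclc (-2.11 to -0.07) did not.

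Sensory neuron-like cells had 4 of 10 lower and none higher (12.1% and 14.4% of all genes). There the metallothioneins were among the lower ones, Mt1 at 292 and 184 CPM (-0.67, -0.76 to -0.58) and Mt2 at 35.1 and 15.4 CPM (-1.19, -1.504 to -0.89), next to Slc7a11 (61 and 7 UMIs, -2.20) and Hmox1 (17.4 and 11.3 CPM, -0.62). Srxn1, at 175 and 189 CPM, was higher in sensory neuron-like cells than in any other DRG class with at least 30 cells. Median depth in the neurons was 49783 UMIs (vehicle) and 130943 UMIs (1NMPP1), and after thinning Mt2 was at 0.03 from 4 and 2 UMIs. None of the genes was counted as lower after thinning, with the minimum of 20 UMIs kept. Hmox1 was then in 0% of 99 vehicle and 0% of 54 1NMPP1 cells, Slc7a11 in 2.02% and 0% and Mt1 in 19.2% and 16.7%. Hmox1 and Mt2 could therefore not be counted in the thinned neurons. In male-called and in female-called cells 2 genes were counted as lower. The class pools 4 clusters of unequal make-up, with 42 and 19 cells in cluster 19.0, 27 and 5 in 19.1, 42 and 23 in 22, and 13 and 17 in 26, and deep cells weigh most in a sum of UMIs. Hmox1 was at 23.8 and 21.4 CPM in cluster 26 and at 18.4 CPM (79 UMIs) and 4.05 CPM (7 UMIs) in cluster 19.0. Mt1 did not pass the fold in cluster 26, at 97.5 and 88.8 CPM, and lay the other way in cluster 19.0, at 286 and 347 CPM.

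In DRG macrophage-like cells 7 of 9 measured genes were lower past the fold and none higher, with 14.7% of 5826 genes lower and 17.8% higher, and their median log2 ratio was -1.57, against 0.05 for all genes. The count of 7 was 2 in the largest cluster, 2 after thinning to 1000 UMIs and 3 among genes with at least 100 UMIs. These alternatives also left fewer genes to count. Slc7a11 had 77 and 7 UMIs, Gclm 55 and 6 and Gclc 53 and 10, each under 100 over both libraries. Gclc had 4 and 4 UMIs after thinning and Slc7a11 2 and 6 in the largest cluster, under the minimum of 20. Hmox1 stood at 1146 and 683 CPM over 69 and 58 cells (-0.75, -0.97 to -0.53). Prdx1 was at 1645 and 534 CPM (-1.62, -1.86 to -1.40), Txnrd1 at 332 and 111 CPM (-1.57, -2.12 to -1.08), Slc7a11 at 121 and 20.4 CPM (-2.48, -3.93 to -1.46), Gclm at 86.5 and 17.5 CPM (-2.20), Srxn1 at 78.6 and 23.3 CPM (-1.68) and Gclc at 83.3 and 29.2 CPM (-1.46). For Slc7a11, 1 vehicle cell held 47 of the 77 vehicle UMIs. Only 5 of 69 vehicle and 3 of 58 1NMPP1 cells had a Slc7a11 UMI. Mt1 was at 1995 and 2322 CPM (0.22, 0.09 to 0.35), Mt2 at 84.9 and 75.8 CPM, and Nqo1 at 0 UMIs in both, below the limit of 3 UMIs.

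In cluster 15.2, the one with the most Hmox1 UMIs, there were 19 vehicle and 7 1NMPP1 cells, with Cd36 and Plau among its leading genes. Its vehicle cells held Hmox1 at 1969 CPM, Prdx1 at 3899 CPM, Txnrd1 at 715 CPM and Slc7a11 at 360 CPM. Its 7 1NMPP1 cells held Hmox1 at 2150 CPM, Prdx1 at 705 CPM, Txnrd1 at 211 CPM and no UMI of Slc7a11. Over the whole class, 1 1NMPP1 cell held 52 of the 234 Hmox1 UMIs, and its cluster is not given here. Hemoglobin genes summed to 52431 CPM in the vehicle cells of this cluster, 35530 CPM in those of cluster 15.3 and 477 to 527 CPM in those of the other 2 clusters; 1NMPP1 cells of these clusters were at 563 to 987 CPM. Of 13 erythroid markers 1 was at 0 in the vehicle and 4 in the 1NMPP1 macrophage-like cells, and the list summed to 25880 and 685 CPM; its part in the result was not tested. Without cluster 15.2, an alternative chosen after seeing the data, Hmox1 was at -0.45, Prdx1 at -0.13, Txnrd1 at -0.54 and Slc7a11 at 1.55 from 3 and 7 UMIs, while Gclm (-1.30), Gclc (-1.45) and Srxn1 (-0.80) remained past the fold from 18, 35 and 15 vehicle UMIs. In the largest cluster, led by C1qb, C1qa and H2-Eb1, Hmox1 was at 0.33 (19 and 25 cells), and in female-called cells at 0.15.

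Growth plate macrophage-like cells had more Hmox1 in the 1NMPP1 library in sum, but most of it in 1 cell. The class-wide log2 ratio was 1.09 (0.82 to 1.37) over 38 and 51 cells. A single 1NMPP1 cell held 228 of the 365 UMIs. Without the cell with the most Hmox1 UMIs in each library the ratio was -0.03 and without that cell's cluster (3 and 8 cells) -0.22, both chosen after seeing the data. It was -0.49 in the largest cluster and -0.47 with each cell weighing alike. In cluster 23.1, led by Gpnmb, Hmox1 was at 1979 CPM (9 vehicle cells) and 617 CPM (22 1NMPP1 cells). Cells of that cluster were shallow, with a median of 1381 UMIs, so both levels rest on few UMIs. The other genes had 1 of 7 past the fold, Gclc at 75.4 and 49.8 CPM (-0.59, -1.42 to 0.20), and with Hmox1 the class counted 1 of 8 higher and 1 of 8 lower, where 14.2% of 6270 genes were higher and 15.5% lower. Prdx1 was at 1450 and 1068 CPM (-0.44), Txnrd1 at 330 and 261 CPM (-0.34) and Mt1 at 319 and 328 CPM (0.04). The 16 neutrophil markers, none at 0, summed to 16504 and 7151 CPM in these cells and Mrc1 stood at 1286 and 689 CPM, and their part in the result was not tested.

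Neutrophil-like cells held most of the Slc7a11 in every library. They had 93.7% of its UMIs in the GP vehicle and 94.3% in the GP 1NMPP1 library, 57.9% in the DRG vehicle and 91.7% in the DRG 1NMPP1 library. Its level in the growth plate was 1564 CPM in 4340 vehicle cells (1551 to 1578) and 1628 CPM in 5588 1NMPP1 cells (1616 to 1640), a log2 ratio of 0.06 (0.04 to 0.07). The next class in the vehicle library, basophil or mast cell-like cells, was at 141 CPM. None of the 10 genes passed the fold in GP neutrophil-like cells, where 7.27% of 13293 genes were higher and 3.2% lower, with medians of 0.03 for the members and 0.05 for all genes. The members ranged from -0.33 (Mt1, 12.8 and 10.2 CPM) to 0.44 (Nqo1, 1.32 and 1.80 CPM). Hmox1 was at 0.11 (-0.03 to 0.26), Txnrd1 at -0.02 (98.5 and 97.4 CPM), Gclm at -0.26 (37.6 and 31.4 CPM) and Gclc at 0.25 (12.9 and 15.4 CPM).

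Between GP neutrophil-like clusters Slc7a11 differed far more than between the libraries. In vehicle cells it was at 41.9 CPM in cluster 9, led by Chil3 and Camp, genes of immature neutrophils, 160 CPM in cluster 4 (Ltf, Ngp), 598 CPM in cluster 5, 1509 CPM in cluster 1 (Mmp8, Retnlg), 2733 CPM in cluster 2, 3372 CPM in the interferon-marked cluster 18 (Ifit1, Rsad2), 4776 CPM in cluster 3 and 6245 CPM in cluster 0, led by Acod1, Cxcl2 and Il1b, genes of activated neutrophils. The 1NMPP1 cells gave the same order, from 28.5 to 5989 CPM. In vehicle cells Hmox1 was at 10.3 CPM in cluster 9 and 56.8 CPM in cluster 0, Txnrd1 at 60.3 and 205 CPM and Srxn1 at 0.364 and 22.0 CPM. Gclm, at 43.6 and 24.8 CPM, and Mt1, at 31.8 and 9.23 CPM, were lower in cluster 0 than in cluster 9. Median depth went the other way from Slc7a11, 21427 UMIs per cell in cluster 9 and 3659 in cluster 0.

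**Figure D4:**
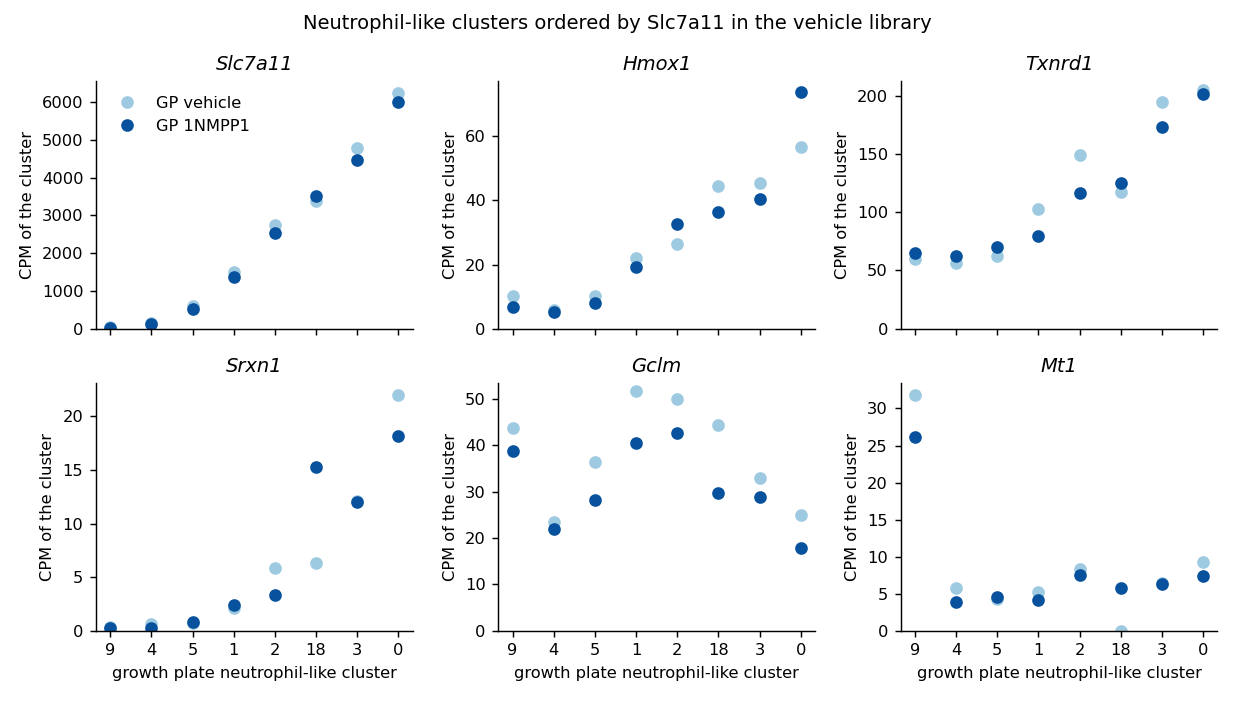
CPM of 6 genes in the 8 GP neutrophil-like clusters, ordered by Slc7a11 in the vehicle library, with 1 point per library. Slc7a11 goes from 41.9 to 6245 CPM in vehicle cells with the 1NMPP1 points beside them; Hmox1, Txnrd1 and Srxn1 are highest in cluster 0, and Gclm and Mt1 are not.

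DRG neutrophil-like cells had 2 of 9 measured genes lower past the fold and none higher, with 5.61% of all genes lower and 15.7% higher: Gclc (41 and 13 UMIs, -1.40, -2.46 to -0.50) and Gclm (40.8 and 24.5 CPM, -0.73, -1.16 to -0.32). Slc7a11 was at 1235 and 896 CPM (-0.46, -0.53 to -0.39) and Hmox1 at 58.4 and 47.7 CPM (-0.29, -0.61 to 0.02), neither past the fold; with no doublets removed 5 genes were counted as lower. Monocyte-like cells of the DRG had 3 of 8 lower and none higher (11.3% and 15.4% of all genes). These were Slc7a11 at 159 and 75.2 CPM (-1.08), Gclc at -0.63 and Mt2 at -1.45 from 21 and 5 UMIs. Hmox1 there was at 56.0 and 57.8 CPM (0.05). None was counted as lower in the largest cluster or after thinning. Mt2 was then in 0% of 84 thinned vehicle and 0% of 104 thinned 1NMPP1 cells and could not be counted. In GP monocyte-like cells 1 of 9 was higher and none lower (3.87% and 4.79% of all genes). That 1 was Mt2 with 7 and 18 UMIs (0.73, -0.53 to 2.30); Slc7a11 (118 and 105 CPM, -0.17), Hmox1 (0.04) and Prdx1 (539 and 549 CPM, 0.03) were close.

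Chondrocyte-like cells of the growth plate, 127 in the vehicle and 42 in the 1NMPP1 library, had 4 of 10 genes higher and 2 lower past the fold, where 10.8% of all genes were higher and 14.6% lower. Mt1 was at 103 and 235 CPM (1.19, 0.98 to 1.40) and Mt2 at 18.3 and 57.1 CPM (1.64, 1.17 to 2.12). The largest counts in a 1NMPP1 cell were 94 of 375 Mt1 UMIs and 51 of 91 Mt2 UMIs. Without the 5 cells with the most Mt1 UMIs in each library, a choice made after seeing the data, the ratios were 0.23 and 0.54, and with no doublets removed Mt2 was at -0.02. Slc7a11 (0.64, 0.17 to 1.101) and Hmox1 (0.63, -0.13 to 1.34) were higher, Gclc (-1.13, -1.80 to -0.55) and Srxn1 (-1.03, -2.06 to -0.20) lower; Hmox1, Slc7a11 and Srxn1 were on the other side of 0 when no doublets were removed.

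The metallothioneins had other leading classes than Hmox1. In the DRG vehicle library Mt1 was highest in endothelial-like (4427 CPM), myelinating Schwann-like (3837 CPM) and satellite glia-like cells (3501 CPM), with intervals that did not overlap, and lowest in neutrophil-like (40.3 CPM) and B cell-like cells (42.0 CPM), whose intervals overlapped. Mt2 was highest in endothelial-like cells in both DRG libraries (1585 and 1555 CPM). In the GP vehicle library Mt1 was high in erythroid-like (399 CPM) and granulocyte progenitor-like cells (375 CPM). An Mt1 UMI was in 19.4% of the 247 erythroid-like and 89.0% of the 464 granulocyte progenitor-like cells, and in 7.41% and 27.8% after thinning. Of the 215 erythroid-like cells of the GP 1NMPP1 library 11.6% had one. In the GP 1NMPP1 library erythroid-like cells were at 156 CPM. That lay under granulocyte progenitor-like (369 CPM), macrophage-like (328 CPM) and chondrocyte-like cells (235 CPM). Mt2 in GP erythroid-like cells was at 181 and 82.6 CPM (vehicle, then 1NMPP1). DRG erythroid-like cells had Mt1 at 226 and 30.6 CPM. Gclc was highest in B cell-like cells of 3 libraries, with 228 CPM in the DRG 1NMPP1 library, and its interval overlapped that of erythroid-like cells in the GP vehicle library. Gclm was highest in erythroid-like cells of each library (354 to 434 CPM).

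The 74 other pathway genes were read in 8 lists. In DRG satellite glia-like cells, 0 of 9 measured Nrf2 control genes were higher and 2 lower past the fold (median log2 ratio -0.19), 0 of 10 glutathione genes either way (-0.13), 1 of 10 thioredoxin and peroxiredoxin genes higher and 1 lower (-0.03), 0 of 6 NADPH genes (-0.12), 2 of 9 heme and iron genes each way (-0.23), 2 of 6 superoxide and peroxide genes higher and 1 lower (0.09), 2 of 7 metal handling genes higher and 0 lower (0.45) and 0 of 7 other Nrf2 targets (0.09). For all genes in this class the median was 0.15, with 10.4% lower and 22.4% higher past the fold, and nothing particular to a list is read from these small counts. By the naming rule, Sqstm1, whose product p62 draws Keap1 away from Nrf2, was at 284 and 124 CPM (-1.20, -1.38 to -1.03), the ferritin light chain gene Ftl1 at 1883 and 851 CPM (-1.15), the thioredoxin inhibitor Txnip at 58.9 and 156 CPM (1.41, 1.22 to 1.59) and the zinc exporter Slc30a1 at 14.8 and 35.8 CPM (1.28). Ftl1 shares 69.1% of its transcript-end words with copies and is uncertain.

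In endothelial-like cells the glutaredoxin Glrx (23.1 and 6.28 CPM, -1.81) and the stress gene Sesn2 (-0.91) were lowest, and Ephx1 (1.00) and the catalase gene Cat (0.96) highest. In DRG macrophage-like cells 3 of 10 heme and iron genes were lower and 0 higher (median -0.45). Of all genes there, 14.7% were lower and 17.8% higher. Hemoglobin genes summed to 25382 and 659 CPM in these cells, and their part in the ratios was not tested. The transferrin receptor Tfrc (94.3 and 11.7 CPM, -2.86) and Prdx2 (-1.30) were lowest there, and Txnip (1.01) and Ncf4 (0.67) highest. In DRG neutrophil-like cells these were Nfe2l1 (-0.78) and Fth1 (4662 and 3169 CPM, -0.56) against Blvrb (0.78) and Txnip (0.78), and in GP neutrophil-like cells Ggt1 (-0.80) and Gpx3 (-0.24) against Gstp1 (3.60) and Prdx4 (0.70). Gstp1, a glutathione transferase, shares 36.0% of its end words with copies such as Gstp2. Over all GP cells Gstp1 was at 1.23 CPM in the vehicle and 14.8 CPM in the 1NMPP1 library, and Gstp2 at 0.122 and 0.394 CPM. Over all DRG cells Gstp1 lay the other way, at 60.7 CPM (vehicle) and 34.5 CPM (1NMPP1), and Gstp2 was at 0.723 and 0.836 CPM. In GP macrophage-like cells the iron exporter Slc40a1 (-0.79) and Bach1 (-0.51) were lowest and Txnip (1.74) and Slc39a1 (1.29) highest. In myelinating Schwann-like cells Txn1 (-0.74) and Bach1 (-0.59) stood against Txnip (1.34) and Sod1 (0.74), and in fibroblast-like cells Osgin1 (-0.95) and Nfe2l2 itself (-0.61) against Txnip (1.04) and Abhd4 (0.88). Monocyte-like cells of the DRG had Sqstm1 (-1.48) and the mitochondrial dismutase gene Sod2 (-1.24) lowest and Mafk (1.12) and Txnrd2 (0.95) highest, and sensory neuron-like cells Cbr3 (-1.30) and the copper transporter Atp7a (-1.04) against Txnip (1.26) and Nfe2l1 (0.48). In GP monocyte-like cells Cbr3 (-0.53) and Slc11a2 (-0.26) stood against Gstp1 (3.89, from 20 and 450 UMIs) and Txnip (0.94), and in chondrocyte-like cells the extracellular dismutase gene Sod3 (67.1 and 6.28 CPM, -3.35) and Ephx1 (-1.75) against Bach1 (1.12) and Gstm1 (1.02).

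Over the 50 pairs of library and class with at least 30 cells, which share depth and free RNA within a library, the genes whose log2(CPM + 1) was most like that of Hmox1 among 13833 genes were Atf3 (Pearson r 0.84), Sec14l1 (0.83), Rab20 (0.82), App (0.81) and Rhob (0.80). Over the 26 GP pairs they were Clec4n (0.91), Atp6v1a, Il18, Cstb and Tlr8 (0.88), and over the 24 DRG pairs Sgpl1 (0.87), Mospd2, Ier3, Nfe2l2 and Stk40 (0.82). For Slc7a11 they were A530064D06Rik, Pram1, Arg2, Csf3r and Fpr1 (0.82 to 0.80), and for Mt2 Cachd1 (0.94), Arhgef12, Mt1 (0.90), Fermt2 and Fbxo30 (0.87). Among the 10 genes themselves the Mt1 and Mt2 profiles had the highest r. The next pairs were nearly tied: Hmox1 and Mt1 (0.6477), Srxn1 and Mt1 (0.6465), Srxn1 and Mt2 (0.6463) and Hmox1 and Txnrd1 (0.645).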

How the data were processed

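Gene by cell tables of raw UMI counts for 4 libraries were deposited by the authors; the file headers name Cell Ranger 7.2.0, and the submitters' processing notes name mm10. Barcodes needed 200 genes and no more than 20% mitochondrial UMIs. Doublets were the highest Scrublet scores at a preset 0.8% per 1000 barcodes, since Scrublet's own threshold marked 2 to 30 barcodes a library. The libraries of each tissue were clustered jointly (scanpy 1.11.5, 2000 variable genes, 30 components, 20 neighbours, Leiden resolution 1), leaving out the 10 genes and 74 listed ones, and clusters were named X-like from 26 marker sets. UMIs were summed per class and library, and 0.5 UMI was added to each sum for the log2 ratio; classes needed 30 cells in both libraries. The code was tested on simulated data. The members and gene lists were chosen with earlier results of these data known. All 10 members are given; listed genes named in a class are the 2 highest and 2 lowest ratios among those with at least 50 UMIs, and profile genes the 5 most alike with at least 500 UMIs. Alternatives were each cell weighing alike, thinning to 1000 UMIs, totals without mitochondrial, ribosomal and hemoglobin genes, no doublet removal, a 10% mitochondrial limit, 500 genes, the largest cluster, cells of one sex call, a fold of 2 and 100 UMIs. The targeted gene is not reported here.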

Additional observations from a re-analysis of the deposited data

Results flagged for a closer look

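Hmox1 in macrophage-like cells lay on opposite sides in the 2 tissues, with a log2 ratio of 1NMPP1 over vehicle of -0.75 (-0.97 to -0.53) in the DRG and 1.09 (0.82 to 1.37) in the growth plate. Each is the result of 1 library against 1, and the difference between the tissues was not tested. The growth plate value rests on a single cell with 228 UMIs, without which it was -0.03, and the DRG value was 0.33 in the largest cluster alone.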

How the results depend on the processing

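No replicate was left out and no paired analysis was possible because each group has 1 library and no test was made. Of 122 values under an alternative for the 12 main results, 78 stayed within the reported interval (counts within 1.5 times), 34 moved and 10 ratios past the fold lay on the other side of 0; of 1201 for single genes these were 853, 328 and 20. Where no cause is named, the cause was not tested. The following are log2 ratios unless called counts.

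With cells thinned to 1000 UMIs, Hmox1 was -4.61 in DRG satellite glia-like (3 UMIs left in 1NMPP1 cells), -1.90 in DRG endothelial-like, 0.24 in GP macrophage-like, 0.39 in GP neutrophil-like and 0.065 in myelinating Schwann-like cells. Slc7a11 was then -0.0097 in GP neutrophil-like and -0.24 in GP chondrocyte-like cells, Mt2 3.22 in GP chondrocyte-like (0 and 1 UMIs) and 0.026 in sensory neuron-like cells, Nqo1 0.42 in fibroblast-like and Gclc 0.30 in DRG macrophage-like cells. Genes counted as lower were 1 in DRG endothelial-like and 2 in DRG macrophage-like cells. With no doublets removed, Hmox1 was -0.17, Srxn1 0.13, Slc7a11 -0.61 and Mt2 -0.017 in GP chondrocyte-like cells, Hmox1 1.76 in GP macrophage-like cells and Mt2 -0.36 in GP monocyte-like cells, and 1 gene was counted as lower in GP neutrophil-like cells.

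In the largest cluster of each class, Hmox1 was -0.33 in DRG satellite glia-like, 0.33 in DRG macrophage-like, -0.49 in GP macrophage-like and 0.38 in GP neutrophil-like cells. Slc7a11 was 3.26 in DRG satellite glia-like, 1.46 in DRG macrophage-like and -0.060 in GP neutrophil-like cells, Srxn1 0.565 in DRG satellite glia-like and Gclc 0.97 in GP macrophage-like cells. Genes counted as lower were 0 in DRG satellite glia-like and 2 in DRG macrophage-like cells, and 3 in the latter with at least 100 UMIs. Genes under the UMI minimum of an alternative could not be counted in it. With each cell weighing alike, Hmox1 was -0.46 in GP chondrocyte-like, -0.47 in GP macrophage-like and -0.53 in DRG macrophage-like cells, and Slc7a11 -0.28 in GP chondrocyte-like and -0.014 in GP neutrophil-like cells.

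In male-called cells Hmox1 was -2.48 in DRG satellite glia-like, -3.02 in DRG endothelial-like, -0.35 in DRG macrophage-like, -0.042 in GP macrophage-like and 0.30 in GP neutrophil-like cells, Slc7a11 -1.49 in DRG satellite glia-like and 0.25 in GP neutrophil-like cells, and Mt2 2.22 in GP chondrocyte-like cells. In female-called cells Hmox1 was -1.79 in DRG endothelial-like, 0.15 in DRG macrophage-like, -0.091 in GP neutrophil-like, -0.17 in GP chondrocyte-like and 0.83 in GP conventional dendritic cell-like cells (0 and 2 UMIs). Slc7a11 was -5.15 in DRG satellite glia-like, 0.15 in DRG macrophage-like, 0.10 in GP neutrophil-like and -1.84 in GP chondrocyte-like cells, and Mt2 3.94 in GP chondrocyte-like cells; 3 genes were counted as lower in DRG endothelial-like cells.

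Alternatives chosen after seeing the data gave, over satellite glia-like clusters with at least 10 cells in both libraries, -0.64 for Hmox1 and 1.21 for Slc7a11. Without the cluster holding the most Hmox1 UMIs they gave -0.45 for Hmox1 and 1.55 for Slc7a11 in DRG macrophage-like cells, and -0.22 for Hmox1 and 0.65 for Gclc in GP macrophage-like cells. Without the cell with the most Hmox1 UMIs in each library Hmox1 was -0.027 in GP macrophage-like cells, and without the 5 cells with the most Mt1 UMIs Mt2 was 0.54 in GP chondrocyte-like cells.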
